A study of Mus musculus with 21 samples.

Results

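Glycolysis enzymes of the heart were described through 10 genes, Hk1, Hk2, Gpi1, Pfkm, Pfkfb2, Aldoa, Pgam2, Pkm, Ldha and Ldhb, chosen by symbol from the 55450 genes of the count table. The symbols matched 11 rows, because Aldoa has a further entry (ENSMUSG00000114515) whose level never exceeded 0.424 CPM (counts-per-million of the scaled library total) in any heart and was kept apart. All 10 genes passed the filter on low counts that left 17309 genes for testing. RNA was sequenced from the left ventricles of 21 male mice of strain 129S6/SvEv. R403Q mice carry a missense mutation of cardiac myosin heavy chain in 1 copy of Myh6, the adult cardiomyocyte myosin gene (labelled Myh6+/R404Q), and are a model of hypertrophic cardiomyopathy. Their wild-type (WT) littermates served as controls. The mice ate a control diet (CD) or the same diet with empagliflozin (EMPA), an inhibitor of the renal sodium-glucose cotransporter SGLT2, at 0.15 mg/g of diet from an age of 9 to 10 weeks. The groups were WT-CD (n = 5), R403Q-CD (n = 7), WT-EMPA (n = 5) and R403Q-EMPA (n = 4). The study text gives hearts of 12 weeks of age after 2 weeks of diet, whereas the sample labels give 16 weeks of diet. Because the mutation changes a residue and deletes nothing, the level of Myh6 RNA does not check the genotype labels.

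Glycolysis splits glucose into pyruvate in the cytosol, and lactate dehydrogenase interconverts pyruvate and lactate. The adult heart burns mostly fatty acids and draws on glucose more when work, insulin or oxygen supply changes. Many steps have isozymes encoded by separate genes, and muscle uses forms of its own such as the phosphofructokinase of Pfkm and the phosphoglycerate mutase of Pgam2. Counts of messenger RNA do not measure enzyme activity or flux.

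Libraries held between 23491535 and 43539684 counts. Group medians ran from 31170736 in R403Q-CD to 35975642 in WT-EMPA. The 8 cardiomyocyte markers were high in every heart. The 7 skeletal muscle markers summed to 1664 to 3267 CPM, of which Ckm, a creatine kinase that heart muscle also makes, gave 1660 to 3265 CPM, while the highest value of the myosins Myh1, Myh2 and Myh4 in any heart was 0.206 CPM. The 4 neutrophil markers summed to 0.727 to 43.5 CPM, with Ly6g at up to 0.253 CPM. One R403Q-CD heart, replicate 2, stood apart. Its cardiomyocyte markers summed to 59729 CPM against 78604 to 96696 in the other R403Q-CD hearts, its fibroblast markers to 3804 CPM against 1477 to 2500, its atrial markers to 608 CPM against 3.22 to 157, and its Nppa, an atrial natriuretic peptide gene induced in stressed ventricle, to 10996 CPM against 883 to 3826. Differences of the enzymes that this heart moved most are given with and without it. R403Q-CD replicate 5 was the next on some of these marks. Its cardiomyocyte markers summed to 78604 CPM against 93645 to 96696 in the remaining hearts of its group. Its fibroblast markers summed to 2500 CPM against 1477 to 1956, while its atrial markers, at 28.5 CPM, did not stand apart. In bulk tissue, fewer cells of a type and less RNA per cell cannot be told apart.

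Per kilobase of annotated exon, the scale on which genes can be compared, the highest level was that of Aldoa (fructose-bisphosphate aldolase) at 1114 ± 70.2 CPM per kb (SD, n = 21). Ldhb followed at 825 ± 111, Pgam2 at 576 ± 68.8, Pfkm at 369 ± 41.7, Ldha at 222 ± 21.5, Pkm at 190.1 ± 21.6, Gpi1 at 78.1 ± 4.27, Hk2 at 58.1 ± 11.8, Hk1 at 27.7 ± 3.21 and Pfkfb2 at 10.5 ± 2.12 CPM per kb. Neighbours in this order whose ranges over the 21 hearts overlapped were Ldhb and Pgam2, Pfkm and Ldha, Ldha and Pkm, Gpi1 and Hk2, and Hk2 and Hk1. The ranges of Aldoa and Ldhb, Pgam2 and Pfkm, Pkm and Gpi1, and Hk1 and Pfkfb2 did not overlap. Relative spread was widest for Hk2 and Pfkfb2, with coefficients of variation of 20.4% and 20.3%, and narrowest for Gpi1 at 5.47%. The authors counted uniquely aligned read pairs only, so genes with near-identical copies elsewhere can be undercounted. Gapdh, a gene outside the 10 that was picked after its values were seen, stood at 9.93 CPM in WT-CD hearts, far under the 3304 CPM of Aldoa, and Pkm, Ldha and Aldoa also have copies, so their rank is uncertain to that extent.

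**Figure D1:**
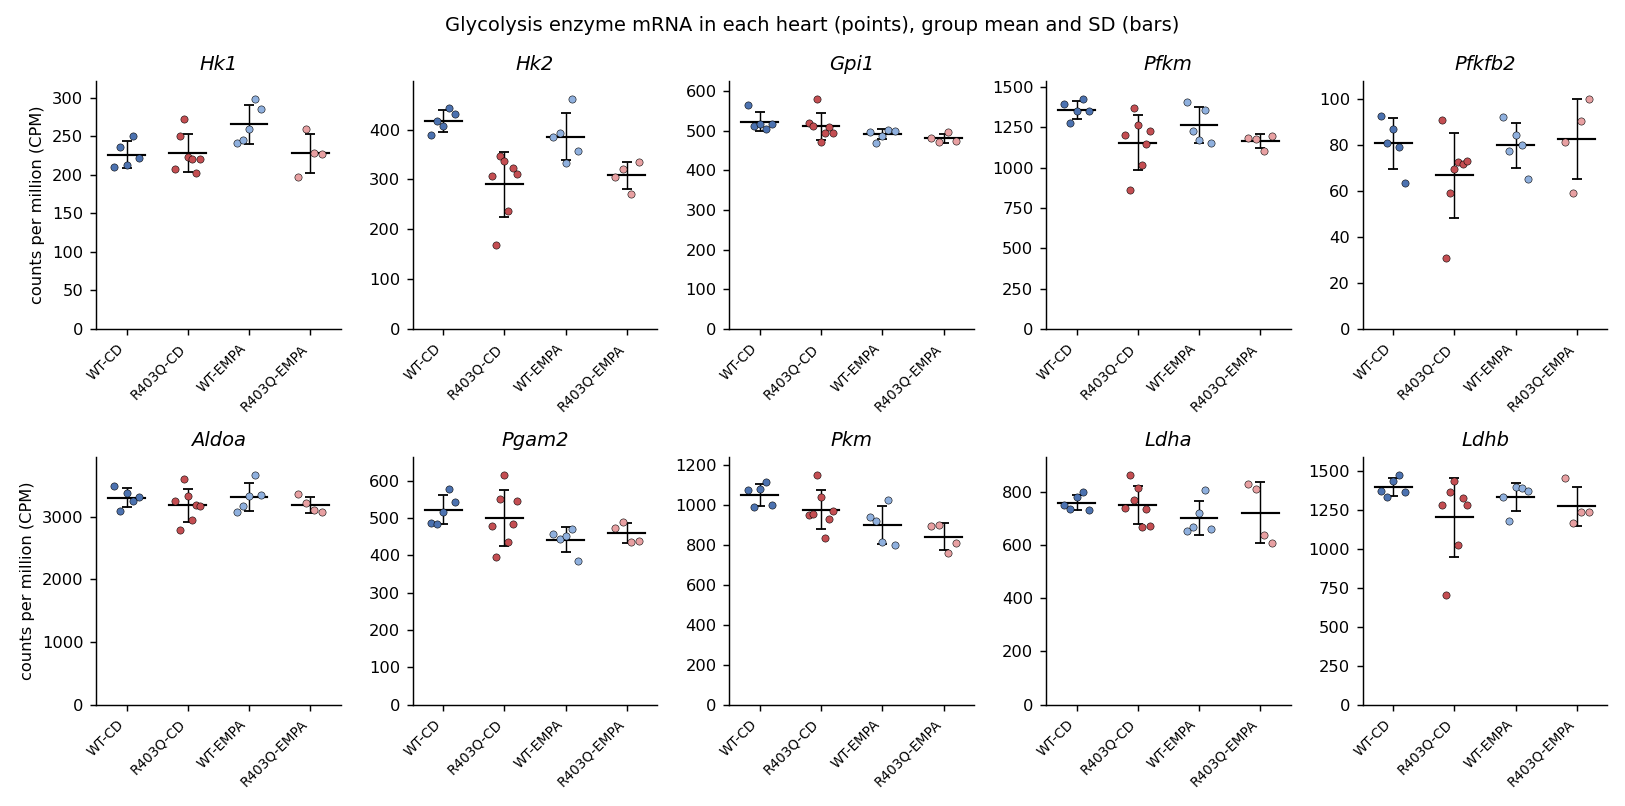
Level of the 10 glycolysis enzymes in CPM (vertical axes, from 0) in each of 21 hearts (points) by group, with the group mean (horizontal line) and SD (error bar). Hk2 in the 7 R403Q-CD hearts lay below all 5 WT-CD hearts, and R403Q-CD replicate 2 had the lowest Hk2, Pfkm, Pfkfb2, Aldoa, Pgam2 and Ldhb of its group.

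The promoters shown here belong to the member that passed the test (Hk2) and to the subunit genes of lactate dehydrogenase. Each is the run of 250 bases before a RefSeq start on GRCm38.p6, 5′ to 3′ on the strand of the gene. They are Hk2 at chr6:82774455-82774704 (minus strand), Ldha at chr7:46845554-46845803 (plus strand) and Ldhb at chr6:142507958-142508207 (minus strand). Capitals mark ACGTG on either strand, the core shared by the hypoxia response element and by the E-box CACGTG that clock factors and MYC bind.
Hk2: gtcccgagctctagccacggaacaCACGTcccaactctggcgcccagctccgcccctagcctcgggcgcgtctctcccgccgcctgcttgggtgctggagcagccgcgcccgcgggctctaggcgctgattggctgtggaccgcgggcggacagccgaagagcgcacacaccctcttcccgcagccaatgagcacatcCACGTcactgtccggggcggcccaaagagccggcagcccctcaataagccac
Ldha: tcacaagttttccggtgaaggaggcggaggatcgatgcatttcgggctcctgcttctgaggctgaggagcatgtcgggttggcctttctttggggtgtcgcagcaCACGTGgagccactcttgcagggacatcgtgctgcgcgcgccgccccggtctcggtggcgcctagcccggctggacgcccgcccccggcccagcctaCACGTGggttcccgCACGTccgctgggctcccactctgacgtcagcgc
Ldhb: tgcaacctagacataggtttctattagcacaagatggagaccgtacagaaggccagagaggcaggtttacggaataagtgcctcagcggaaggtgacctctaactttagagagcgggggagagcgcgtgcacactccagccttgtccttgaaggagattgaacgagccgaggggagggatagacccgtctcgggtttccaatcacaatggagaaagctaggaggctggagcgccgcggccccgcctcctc
The Hk2 window held 2 such stretches, starting 226 and 52 bases before the start, and no CACGTG. The Ldha window held 3 stretches, of which 2 were CACGTG (starting 145 and 48 bases before the start). A further RefSeq promoter of Ldha, at chr7:46846832-46847081 and not printed here, held 0 matches. In the Ldhb window the letters were absent. RefSeq listed 20 promoters for the 10 genes, of which 9 promoters in 6 genes held ACGTG. Of all 32851 RefSeq mouse promoters of this length, 16.6% held it. Promoters of a gene can overlap, and overlapping windows of Aldoa held the same site, so these promoters are not independent. CACGTG, which contains ACGTG on both strands, was in 6.02% of all promoters. A match of letters does not show that a factor binds there.

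Hexokinase, which traps glucose as glucose 6-phosphate, gave the only call among the 10 genes. Hk2 (ENSMUSG00000000628, GRCm38 chr6:82725025-82774454, minus strand) encodes the insulin-responsive form of striated muscle. Hk2 stood at 389, 417, 406, 444 and 432 CPM in the WT-CD hearts. In the R403Q-CD hearts it stood at 307, 168, 347, 336, 237, 323 and 311 CPM. Every R403Q-CD heart therefore lay below every WT-CD heart, which held for 2.12% of all tested genes in either direction. The group means were 418 ± 21.6 CPM in WT-CD and 289.8 ± 64.4 CPM in R403Q-CD (SD). Hk2 fell by 30.6% in R403Q-CD against WT-CD, a log2 fold difference of -0.53 (SE 0.13), with an unadjusted p of 0.000472 and an adjusted p of 0.0423 in edgeR's quasi-likelihood test with Benjamini-Hochberg adjustment. Of all 17309 genes, 1.43% passed this threshold in this comparison, and 0.566% passed it as lower in R403Q-CD. DESeq2 gave Hk2 an adjusted p of 0.00562, where it called 5.6% of genes.

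The call for Hk2 lies close to the threshold. Its adjusted p was 0.0742 in a fit of the 3 groups without WT-EMPA, and 0.0894, 0.0736, 0.0961, 0.111 and 0.0646 without WT-CD replicates 1 to 5 in turn. It was 0.0824 without R403Q-CD replicate 5, at a log2 fold difference of -0.49. The adjusted p was 0.0153 without R403Q-CD replicate 2, at a log2 fold difference of -0.44. Over all 18 alternatives the log2 fold change ranged from -0.65 to -0.44.

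The summed levels of cell type markers are given beside the Hk2 result. Cardiomyocyte markers summed to 95422 to 104662 CPM in WT-CD and to 59729 to 96696 CPM in R403Q-CD. Fibroblast markers summed to 1088 to 1763 CPM in WT-CD and to 1477 to 3804 CPM in R403Q-CD. Of these lists, 0 of 8 cardiomyocyte and 0 of 6 fibroblast genes were called, with median log2 fold changes of -0.14 and 0.68. Macrophage markers summed to 138 to 195 CPM in WT-CD and to 191 to 345 CPM in R403Q-CD, and 2 of 6 rose, Csf1r by a log2 fold difference of 0.45 (adjusted p = 0.0249, edgeR) and Adgre1 by 0.67 (adjusted p = 0.0368). Nppa was also called, at a log2 fold difference of 2.73 (adjusted p = 0.0404), and at 1.80 without R403Q-CD replicate 2 (adjusted p = 0.0361). The part of these markers in the Hk2 result was not tested.

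**Figure D2:**
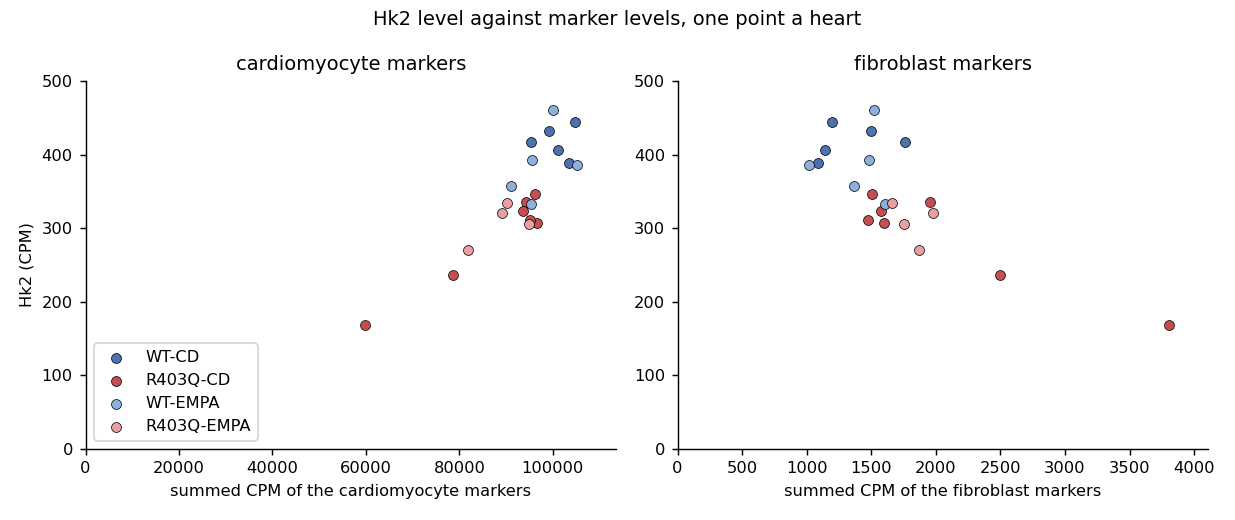
Hk2 level in CPM (vertical axes) against the summed CPM of 8 cardiomyocyte markers (left) and 6 fibroblast markers (right), 1 point a heart, coloured by group. R403Q-CD replicate 2 is the point at 168 CPM of Hk2 with 59729 CPM of cardiomyocyte and 3804 CPM of fibroblast markers.

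With EMPA in the diet, Hk2 stood at 386, 393, 333, 461 and 358 CPM in WT-EMPA and at 306, 321, 270, and 335 CPM in R403Q-EMPA. The ranges overlapped by a single pair of hearts. The log2 fold change of R403Q-EMPA against WT-EMPA was -0.33 (SE 0.15) with an adjusted p of 0.310 in edgeR. Against R403Q-CD, the R403Q-EMPA hearts differed by 0.09 (SE 0.14, adjusted p = 0.824), and the genotype-by-diet interaction, how far the diet difference in R403Q exceeded that in WT, was 0.20 (SE 0.20, adjusted p = 0.999). Without R403Q-CD replicate 2 these differences were -0.01 (SE 0.10) and 0.10 (SE 0.13). The mean of Hk2 was lower in R403Q than in WT hearts on each diet and passed the threshold only on CD, and whether the genotype difference itself depended on diet was not resolved at this sample size.

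Hk1 (ENSMUSG00000037012, chr10:62268855-62379908, minus strand) encodes the widely expressed hexokinase that docks on mitochondria. It stood at 210, 236, 212, 251 and 222 CPM in WT-CD and from 203 to 273 CPM (median 221) in R403Q-CD, a log2 fold difference of 0.01 (SE 0.08, adjusted p = 0.949). Its WT-EMPA hearts, at 241, 245, 259, 298 and 286 CPM, had the highest mean. Against WT-CD they differed by 0.23 (SE 0.09, adjusted p = 0.341), and R403Q-EMPA differed from them by -0.22 (SE 0.10, adjusted p = 0.284). Neither difference passed the threshold.

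The balance of Hk1 and Hk2 was also described. Hk2 made up 72.5 ± 0.891% of the per-kilobase level of Hk1 plus Hk2 in WT-CD, with a range of 71.6% to 73.6%. The share was 63.8 ± 7.20% in R403Q-CD, from 48.9% in replicate 2 to 69.5%, and 66.3 ± 3.27% without replicate 2. It was 67.4 ± 2.72% in WT-EMPA and 65.9 ± 2.97% in R403Q-EMPA. The 5 WT-CD hearts all lay above the other 16 hearts, whose highest share was 69.6%. These shares are descriptions and were not tested.

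**Figure D3:**
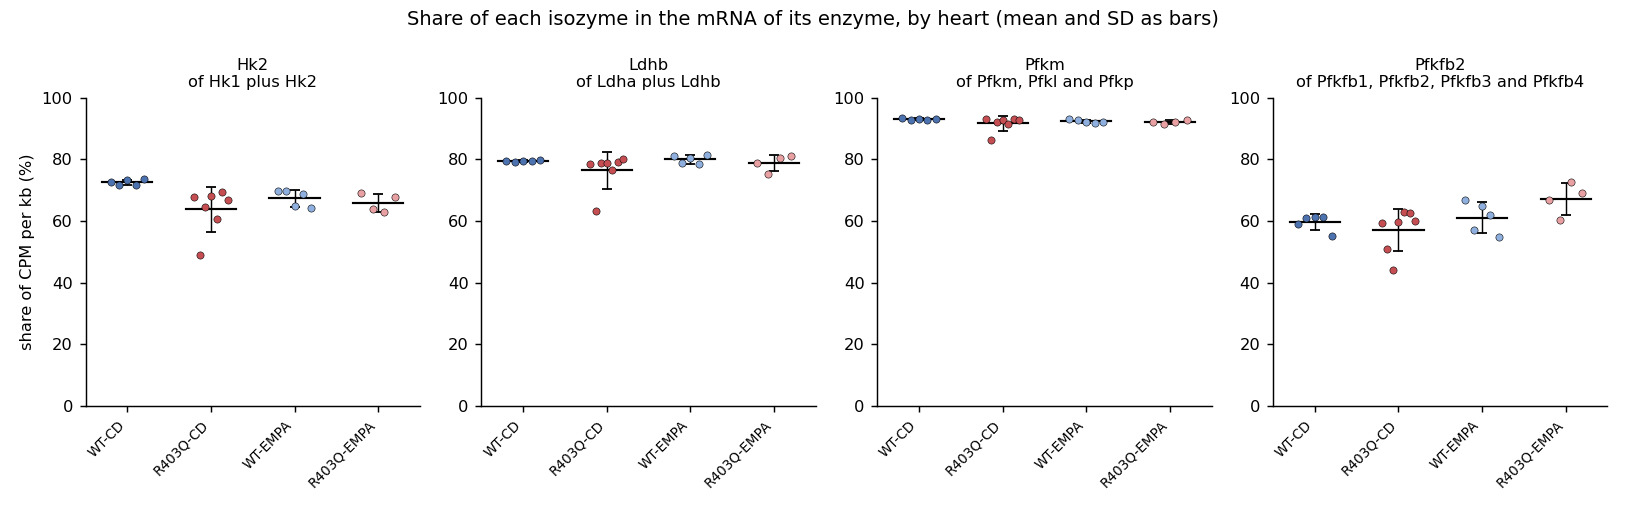
Share of Hk2, Ldhb, Pfkm and Pfkfb2 in the summed CPM per kb of their isozymes (vertical axes, %) in each heart (points) by group, with mean and SD (bars). Hk2 made up 71.6% to 73.6% in the WT-CD hearts, and R403Q-CD replicate 2 had the lowest share of Hk2 (48.9%), Ldhb (63.2%) and Pfkm (86.5%).

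Gpi1 (ENSMUSG00000036427, chr7:34201330-34230336, minus strand), which converts glucose 6-phosphate to fructose 6-phosphate, varied least. It stood at 564, 511, 518, 505 and 518 CPM in WT-CD and from 472 to 580 CPM (median 510) in R403Q-CD, a log2 fold difference of -0.03 (SE 0.06, adjusted p = 0.777). In WT-EMPA it stood at 497, 470, 488, 502 and 499 CPM, below every WT-CD heart. This separation held for 3.45% of all genes in that comparison, and the log2 fold change of -0.09 (SE 0.06) did not pass the threshold (adjusted p = 0.611).

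Phosphofructokinase commits sugar to glycolysis, and Pfkm (ENSMUSG00000033065, chr15:98092589-98132451, plus strand) is its muscle form. Pfkm stood at 1395, 1277, 1352, 1423 and 1350 CPM in WT-CD. In R403Q-CD it stood at 1203, 860, 1371, 1267, 1015, 1146 and 1227 CPM, so that 6 of 7 hearts lay below the lowest WT-CD heart. The log2 fold difference of -0.23 (SE 0.09) had an unadjusted p of 0.0170 and did not pass after adjustment (adjusted p = 0.155 in edgeR, 0.0872 in DESeq2). Without R403Q-CD replicate 2 it was -0.18 (adjusted p = 0.220). Unadjusted p-values under 0.05 were had by 20.8% of all genes in this comparison and by 2 of the 10 enzymes, Hk2 and Pfkm, a share near the background. In WT-EMPA, Pfkm ranged from 1154 to 1406 CPM, and in R403Q-EMPA from 1105 to 1195 CPM (adjusted p = 0.622). Pfkm made up 93.1 ± 0.284% of phosphofructokinase RNA per kilobase in WT-CD and 91.8 ± 2.40% in R403Q-CD, where replicate 2 was lowest at 86.5%.

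Pfkfb2 (ENSMUSG00000026409, chr1:130689182-130729253, minus strand) encodes the heart form of the enzyme that makes and degrades fructose 2,6-bisphosphate, the activator of phosphofructokinase. It stood at 92.7, 80.8, 86.8, 79.0 and 63.4 CPM in WT-CD. In R403Q-CD it ranged from 30.9 CPM (replicate 2) through a median of 71.4 to 90.6 CPM, and in R403Q-EMPA it stood at 81.2, 58.9, 90.2 and 99.7 CPM. The groups overlapped throughout. Its log2 fold change was -0.27 (SE 0.18, adjusted p = 0.395) in R403Q-CD against WT-CD, and -0.15 without replicate 2. In R403Q-EMPA against R403Q-CD it was 0.31 (SE 0.19, adjusted p = 0.506), and 0.18 without that heart (adjusted p = 0.654). Pfkfb2 made up between 44.2% and 72.8% of the RNA of the 4 genes of its family over all hearts.

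Aldoa (ENSMUSG00000030695, chr7:126795234-126800751, minus strand) splits fructose 1,6-bisphosphate into its triose phosphates. It stood at 3304 ± 147 CPM in WT-CD, 3181 ± 262 in R403Q-CD, 3317 ± 225 in WT-EMPA and 3189 ± 128 in R403Q-EMPA. Its largest log2 difference in the 4 pairwise comparisons was -0.06 (SE 0.08).

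Pgam2 (ENSMUSG00000020475, chr11:5801640-5803733, minus strand), the muscle phosphoglycerate mutase, differed most between the diets in WT hearts. It stood at 488, 484, 516, 577 and 543 CPM in WT-CD and at 458, 443, 451, 470 and 384 CPM in WT-EMPA, without overlap, as for 3.45% of all genes in that comparison. The log2 fold change of -0.24 (SE 0.10) had an unadjusted p of 0.0217 and an adjusted p of 0.369. In R403Q hearts it ranged from 396 to 615 CPM on CD and from 435 to 489 CPM on EMPA, with a log2 fold difference of -0.12 (SE 0.10, adjusted p = 0.606).

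Pkm (ENSMUSG00000032294, chr9:59656368-59679375, plus strand) encodes pyruvate kinase, the last step to pyruvate, and its counts sum the PKM1 and PKM2 splice forms. Pkm stood at 1074, 989, 1079, 1114 and 1003 CPM in WT-CD and at 942, 919, 813, 1028 and 802 CPM in WT-EMPA. In R403Q-CD it ranged from 837 to 1151 CPM (median 956), and in R403Q-EMPA it stood at 896, 899, 760 and 812 CPM. The means were lower on EMPA in each genotype, by a log2 fold difference of -0.22 (SE 0.09, adjusted p = 0.347) in WT and -0.21 (SE 0.09, adjusted p = 0.296) in R403Q, and neither passed the threshold. Unadjusted p-values were 0.0181 and 0.0230. These comparisons share no hearts, but cage, as the sample labels give it, and diet cannot be told apart, since the 4 cages on CD and the 3 cages on EMPA were different cages.

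Lactate dehydrogenase is a tetramer of the subunits encoded by Ldha (ENSMUSG00000063229, chr7:46841475-46855627, plus strand), the form of glycolytic muscle, and Ldhb (ENSMUSG00000030246, chr6:142490249-142507957, minus strand), the form of the oxidative heart. Ldha stood at 752, 736, 782, 798 and 731 CPM in WT-CD, and in R403Q-CD it ranged from 668 to 863 CPM (median 740), with its highest value in replicate 2. The log2 fold change was -0.02 (SE 0.09, adjusted p = 0.946), and -0.06 without replicate 2 (adjusted p = 0.775). Ldhb stood at 1372, 1334, 1436, 1476 and 1364 CPM in WT-CD and at 1281, 702, 1366, 1436, 1029, 1329 and 1285 CPM in R403Q-CD. Its log2 fold change was -0.21 (SE 0.12, adjusted p = 0.322), and -0.12 without replicate 2 (adjusted p = 0.447). Ldhb made up 79.5 ± 0.184% of the subunit RNA per kilobase in WT-CD, and the WT-CD hearts stayed within 79.3% to 79.7%. In R403Q-CD the share ranged from 63.2% in replicate 2 to 80.1%, and without that heart it was 78.7 ± 1.22%.

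The 10 enzymes can also be set beside all genes in each comparison. In R403Q-CD against WT-CD, 1 of the 10 passed the threshold in edgeR and in DESeq2, where 1.43% and 5.6% of all genes passed, and the groups did not overlap for 1 of 10, against 2.12% of all genes. In this comparison 9 had a negative log2 fold change, and their median was -0.08, while the median of all genes was 0.01 and 47.5% of all genes had a negative value. In R403Q-EMPA against WT-EMPA, 0 of 10 passed in edgeR and in DESeq2, where 0.0578% and 1.86% of all genes passed. Hk1 and Hk2 had an unadjusted p under 0.05, as did 14.6% of all genes, and the groups overlapped for all 10, whereas 6.77% of all genes showed no overlap. The median there was -0.06, with 7 negative.

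The diet moved no enzyme past the threshold. In R403Q-EMPA against R403Q-CD, 0 of 10 passed in edgeR and in DESeq2, which called 0.0289% and 1.05% of all genes, and their median log2 fold change was 0.00 with 5 of 10 negative. Only Pkm had an unadjusted p under 0.05, as had 13.2% of all genes, and the groups overlapped for all 10, whereas 1.62% of genes showed no overlap. In WT-EMPA against WT-CD, 0 of 10 passed with each tool, against 0.0289% and 0.752% of all genes. Hk1, Pgam2 and Pkm had an unadjusted p under 0.05, as had 10.9% of all genes, and 8 of 10 differences were negative with a median of -0.10. The groups did not overlap for 2 of the 10, Gpi1 and Pgam2, as for 3.45% of all genes. In the same comparison the neutrophil markers summed to 0.727 to 7.39 CPM in WT-CD and to 6.15 to 43.5 CPM in WT-EMPA, where 0 of the 3 tested passed in edgeR and their median log2 fold change was 2.65. They summed to 1.77 to 7.46 CPM in R403Q-CD and to 3.82 to 26.1 CPM in R403Q-EMPA, with a median of 1.66 and 0 of 3 passed. The EMPA hearts with the highest neutrophil sums in each genotype also had the lowest Pkm. They were WT-EMPA replicates 3 and 5 and R403Q-EMPA replicates 3 and 4, picked after their values were seen. WT-EMPA replicate 5 and both of these R403Q-EMPA hearts shared a cage. On CD the highest neutrophil sums, 7.39 CPM in WT-CD replicate 4 and 7.46 CPM in R403Q-CD replicate 4, went with higher Pkm. It stood at 1114 CPM, the highest of WT-CD, and at 1039 CPM, above the R403Q-CD median of 956 CPM. Red blood cell markers had medians of 0.64 in WT and 0.65 in R403Q on EMPA against CD, with 0 of 6 passed in each. Smooth muscle and pericyte markers had medians of -0.37 and -0.71, and atrial markers of -1.43 and -3.40. Hypertrophy and stress genes, which include Nppa, had medians of 0.18 and -1.17. Of these 3 lists 0 genes passed. The part of these cells and markers in the diet differences was not tested. For the genotype-by-diet interaction, 0 of 10 passed, the share of all genes that passed was 0% with edgeR and 0% with DESeq2, and 3.17% of all genes and 0 of the 10 had an unadjusted p under 0.05. The comparisons share groups of hearts, so their values are not independent.

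**Figure D4:**
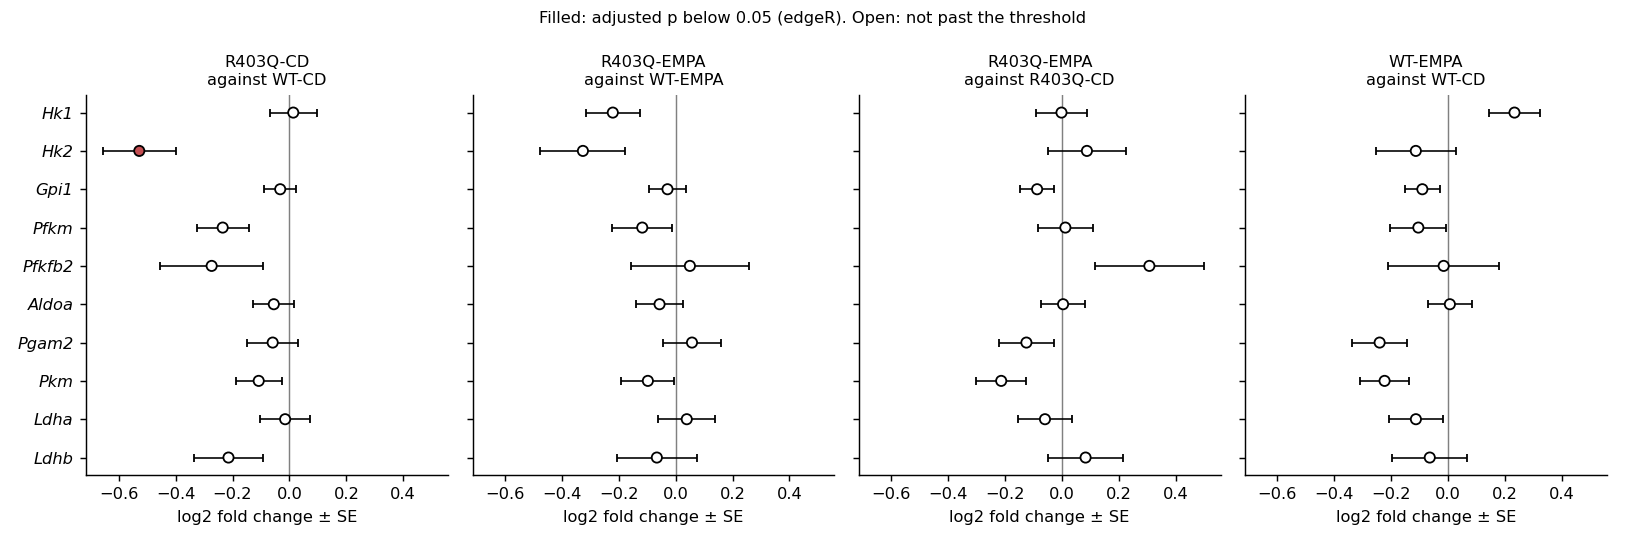
Log2 fold change (horizontal axes) ± SE of the 10 enzymes in 4 comparisons from 1 edgeR fit, with filled points for an adjusted p under 0.05. The single filled point is Hk2 in R403Q-CD against WT-CD, at -0.53.

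No gene of the daily clock passed the threshold between the diets in edgeR, with 0 of 15 core clock and output genes in any comparison. In WT-EMPA against WT-CD 10 had an unadjusted p under 0.05, 2 higher and 8 lower, against 10.9% of all genes. In R403Q-EMPA against R403Q-CD 11 had one, 2 higher and 9 lower, against 13.2% of all genes. DESeq2 called 1 and 2 of them. Their median log2 fold changes were -0.35 and -0.32. Arntl, a core activator, stood at 2.34 CPM in WT-CD and 8.0 CPM in WT-EMPA, and Dbp, a clock output gene, at 96.6 and 47.8 CPM (both named after their values were seen). The part of the time of sampling or feeding in the diet differences of Pkm, Pgam2 and Hk1 was not tested.

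Each cage of the CD mice held both genotypes. The R403Q mean lay below the WT mean in 4 of 4 cages for Hk2, Pfkm, Pkm and Ldhb. It did so in 3 of 4 for the other 6 genes. These are the same hearts as in R403Q-CD against WT-CD, and the share of all genes with such counts was not computed. Some cages held 1 heart of a genotype, and R403Q-CD replicate 2 was the only R403Q heart of its cage. For Hk2 the R403Q minus WT differences were -81.8, -244, -103 and -142 CPM. With cage as a factor, the log2 fold change of Hk2 was -0.65 (adjusted p = 0.0170, edgeR). That fit called far more of all genes than the main fit, as the last section gives. In the 2 cages of EMPA mice that held both genotypes, Hk2 differed by -147 and -55.3 CPM. The R403Q mean was also lower in 2 of 2 for Hk1, Gpi1, Pfkm, Aldoa, Pkm and Ldhb. It was lower in 1 of 2 for Pfkfb2 and Ldha, and in 0 of 2 for Pgam2.

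R403Q-CD replicate 2 set much of the spread of some enzymes in its group. It was the lowest of the 7 hearts for 6 of the enzymes and the highest for Ldha. Without it, the coefficient of variation in R403Q-CD went from 22.2% to 12.6% for Hk2, from 21.2% to 10.8% for Ldhb and from 27.5% to 14.0% for Pfkfb2. In the WT-CD hearts these values were 5.16%, 4.14% and 13.6%. For the other enzymes in R403Q-CD it went from 14.7% to 9.91% (Pfkm), 14.9% to 12.4% (Pgam2), 9.48% to 7.72% (Ldha) and 8.25% to 6.61% (Aldoa). It rose from 10.9% to 11.1% for Hk1, from 6.59% to 7.22% for Gpi1 and from 10.0% to 10.9% for Pkm.

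**Figure D5:**
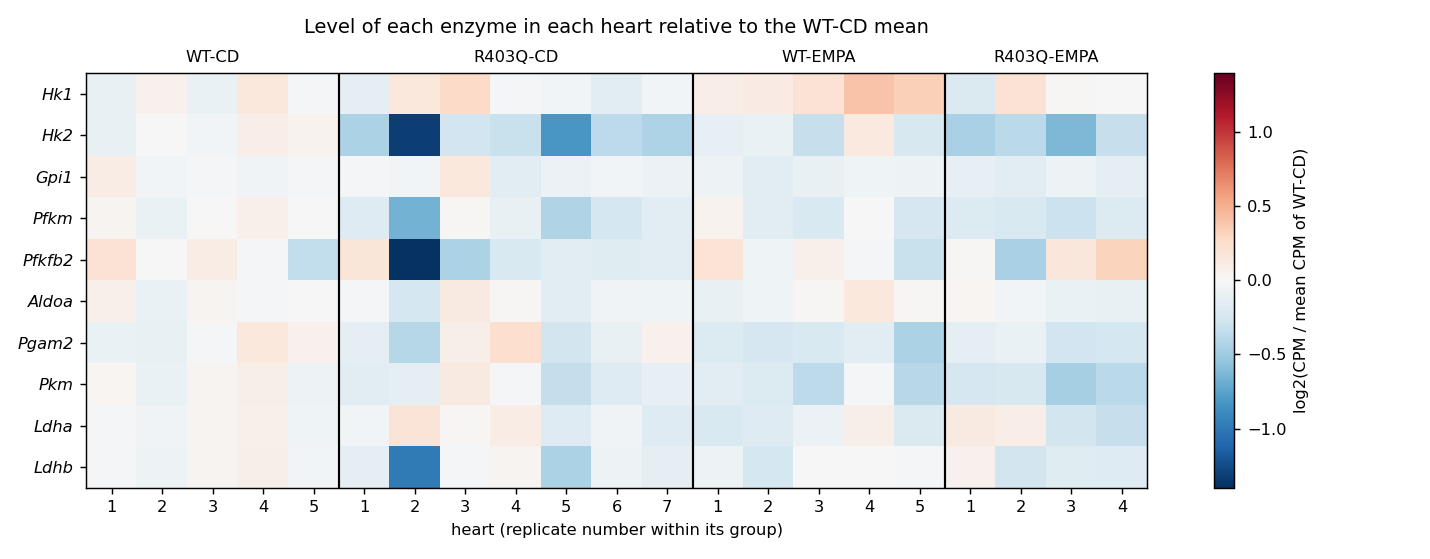
Log2 ratio of the CPM of each enzyme (rows) in each heart (columns, by group) to the WT-CD mean, blue for lower and red for higher. The darkest cells are Hk2 and Pfkfb2 in R403Q-CD replicate 2, and the Hk2 row is blue in all 7 R403Q-CD hearts.

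After group means were subtracted, the deviations of the enzymes across the 21 hearts were compared as a description; the points share library depth and tissue composition. Of 45 pairs, 35 had a Pearson r above 0 and 18 an r above 0.5. Once the 2 hearts farthest from the median of the first-named enzyme were left out, 11 had an r above 0.5. Hk2 and Pfkm had the highest value, r = 0.90 (Spearman rho = 0.78). It was 0.75 without R403Q-CD replicates 2 and 5, the 2 farthest for Hk2. Hk2 and Ldhb had r = 0.83 with all hearts and 0.47 without them. Hk2 and Ldha had r = -0.05 with all hearts and 0.26 without them. Ldha and Ldhb had r = -0.06 (Spearman rho = 0.31). It was -0.20 without the 2 hearts farthest for Ldha, WT-EMPA replicate 4 and R403Q-EMPA replicate 1, so that R403Q-CD replicate 2 stayed in. Much of the gap between Ldha and Ldhb in their relation to Hk2 thus rested on R403Q-CD replicates 2 and 5. Hk1 and Pfkfb2 had the most negative value, r = -0.55 (-0.51 without the 2 hearts farthest for Hk1).

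Among 11087 other genes with a mean of at least 5 CPM, those whose deviations were most like a member's were named. For Hk2 they were Mmp15 (r = 0.95), Rap1gap2 (r = 0.94) and Armh3 (r = 0.93), with r between 0.83 and 0.87 without the 2 farthest hearts. For Pfkm they were Atp5a1, Uqcrc1 and Dlat (each r = 0.96), with r of at least 0.89 without the 2 hearts farthest for Pfkm. For Pgam2 they were Ndufb8 (r = 0.94), Uqcrfs1 (r = 0.93) and Atp5d (r = 0.93). For Ldhb they were the pseudogene Gm5514 (r = 0.99), Acadm (r = 0.97) and the pseudogene Gm13910 (r = 0.97). Among the remaining genes were Slc7a2, Slc27a4 and Trim72 for Hk1, Gm1840, Sorcs2 and Mboat7 for Gpi1, Cpeb3, Prodh and Ddt for Pfkfb2, Gatad1, Aes and Vdac3-ps1 for Aldoa, Gm6560 and Cdk16 for Pkm, and Itgb1bp2, Psmd8 and Gm5452 for Ldha. Of the 30 genes, 6 are annotated as pseudogenes, whose counts may hold reads of a functional copy.

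Other genes of glucose use gave no call in R403Q-CD against WT-CD in edgeR, where 20.8% of all genes had an unadjusted p under 0.05. Of 31 other glycolytic enzymes, 24 were tested and 0 were called by edgeR or DESeq2, 4 had an unadjusted p under 0.05, and the median log2 fold change was 0.03. The smallest p-values were those of Eno2 (0.63, SE 0.22, adjusted p = 0.114), the neuronal enolase, at 1.93 CPM in R403Q-CD and 1.25 CPM in WT-CD, and Aldoc (1.1, SE 0.46, adjusted p = 0.178), with group means of at most 0.293 CPM. Among 21 genes of glucose entry and glycogen, 0 were called by edgeR and 1 by DESeq2, 8 had an unadjusted p under 0.05 (2 higher and 6 lower), and the median was -0.13. Slc2a4, the insulin-responsive glucose transporter GLUT4, stood at 487 CPM in R403Q-CD and 660 CPM in WT-CD without overlap (-0.44, SE 0.12, adjusted p = 0.0657, and 0.0176 in DESeq2). Without R403Q-CD replicate 2 it passed in edgeR, at -0.34 (adjusted p = 0.0287).

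The 7 genes of lactate and pyruvate transport held no call in edgeR or DESeq2 and 0 unadjusted p-values under 0.05. Slc16a3, a lactate exporter, differed by 0.79 (SE 0.39, adjusted p = 0.249) and Bsg, the chaperone of these carriers, by -0.13 (SE 0.09, adjusted p = 0.437). Without R403Q-CD replicate 2 these values were 0.31 and -0.07. In the side branches of glycolysis 0 of 17 were called with edgeR and 1 with DESeq2, 6 had an unadjusted p under 0.05, and the median was 0.11. Phgdh, which opens serine synthesis, differed by 0.98 (SE 0.31, adjusted p = 0.0943, and 0.0463 in DESeq2), and Tkt, the transketolase of the pentose phosphate path, by 0.15 (SE 0.05, adjusted p = 0.110). Of 18 regulators, 0 were called by edgeR and 1 by DESeq2, and the 5 with an unadjusted p under 0.05 were all lower, with a median of -0.12 over the list. Mef2a, a muscle transcription factor, differed by -0.23 (SE 0.07, adjusted p = 0.0716, and 0.0135 in DESeq2) and Ppara, a fatty acid sensor, by -0.45 (SE 0.15, adjusted p = 0.115). The clock genes with the smallest p-values in this comparison were Hlf (-0.51, SE 0.16, adjusted p = 0.0876) and Cry2 (-0.23, SE 0.08, adjusted p = 0.125). Of the 11 genes named from these lists for this comparison, 0 passed with all hearts in edgeR, and 5 passed without R403Q-CD replicate 3 (Tkt, Ppara, Cry2, Slc2a4 and Mef2a, with adjusted p from 0.0245 to 0.0497), where 984 of all genes passed against 247 with all hearts. Mef2a also passed without R403Q-CD replicate 1 (adjusted p = 0.0495). In the other 4 contrasts 0 genes of these 6 lists were called with edgeR. DESeq2 called at most 2 genes of a list in any contrast.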

How the data were processed

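Left ventricular RNA of 21 mice was measured, 1 sample a mouse, in 4 groups set by the sample labels. The authors selected polyadenylated RNA, sequenced read pairs, aligned them with STAR 2.6.0c to mm10 and made the deposited counts with featureCounts (Subread 1.6.2) from uniquely aligned proper pairs over Ensembl genes, without mitochondrial genes. The deposited log2 values are the authors' variance-stabilized values from DESeq2 1.32.0. Symbols and positions came from GENCODE M21 (GRCm38), which matched 55190 of 55450 gene identifiers.

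The counts were fitted in R 4.3.3 with edgeR 4.0.16 as 4 groups, with filterByExpr (minimum count 10), TMM scaling and the quasi-likelihood test, 5 contrasts and a Benjamini-Hochberg adjusted p under 0.05 over 17309 genes. CPM values use TMM scaling. Isozyme shares used CPM per kilobase of annotated exon. Totals of 23491535 to 43539684 counts put 3 counts at 0.0689 to 0.128 CPM. Replicate numbers follow accession order and pair nothing. The alternatives were DESeq2 1.42.0, limma 3.58.1 on the deposited log2 values, library size alone, no filter, 3 groups without WT-EMPA, cage as a factor, and leaving out each heart. Tested on simulated data with 200 genes changed 2-fold, edgeR recovered 92% of them for simulated R403Q-CD and WT-CD hearts. The 10 enzymes differed by less than 2-fold in each contrast, so this share does not give the recovery of changes of their size.

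The 10 enzymes and the gene lists were chosen with earlier results of these data known. Named genes were the 10 enzymes in each contrast, list genes with an adjusted p under 0.05 in any contrast, the 2 genes of each list with the smallest p in R403Q-CD against WT-CD, and the 3 genes most like each enzyme over the hearts. Some genes that this rule names are not reported here.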

Additional observations from a re-analysis of the deposited data

Results flagged for a closer look

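Each of the 10 enzymes was checked in each of 4 groups for a heart far from the others (Dixon's test at 95%), and 2 of 40 checks were positive, where chance gives about 1 in 20. Gpi1 stood at 564 CPM in WT-CD replicate 1, above the 505 to 518 CPM of the other WT-CD hearts. Ldhb stood at 1180 CPM in WT-EMPA replicate 2, below the 1334 to 1397 CPM of the other WT-EMPA hearts.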

How the results depend on the processing

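The number of the 10 enzymes past the threshold stayed at 0 under each alternative in 4 of the 5 contrasts. In R403Q-CD against WT-CD it was 1, became 0 in the fit of 3 groups, and ranged from 0 to 1 when single hearts were left out. All genes past the threshold in that contrast numbered 247, with 97 in the fit of 3 groups, 1051 with cage as a factor, 970 with DESeq2 and 36 to 984 without single hearts. With library size alone 258 of 335 calls were higher, against 149 of 247 with TMM. R403Q-EMPA against R403Q-CD gave 5 genes, with 1 without the filter, 0 in the fit of 3 groups, 157 with DESeq2 and 0 to 9 without single hearts. WT-EMPA against WT-CD gave 5 genes, with 3 by library size alone, 112 with DESeq2 and 0 to 7 without single hearts. R403Q-EMPA against WT-EMPA gave 10 genes, with 18 without the filter, 0 with cage as a factor, 299 with DESeq2 and 2 to 82 without single hearts. The genotype-by-diet interaction gave 0 genes under each alternative run. The cause of these shifts was not tested. No analysis paired by replicate number was possible, because replicate numbers follow accession order. Cage, the label that genotypes share within a diet, was fitted as a factor. Of the 8 differences of single enzymes with an unadjusted p under 0.05 and these alternatives, 0 changed sign. Of the other 42, with larger unadjusted p-values, 20 changed sign in at least 1 alternative and 0 were called.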
